A study of Mus musculus with 34 samples.

Results

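Small nucleolar RNAs (snoRNAs) and small Cajal body RNAs (scaRNAs) with a measurable level in the dorsal hippocampus were examined in mice that had learned a spatial task and in untrained mice. The bulk RNA-seq experiment held 8 libraries from whole dorsal hippocampus of adult male C57BL/6J mice. The 4 homecage mice were not trained. The 4 SOR mice were trained in spatial object recognition, a hippocampus-dependent task, and were euthanized 1 h later. All mice were housed alone and handled beforehand, and both groups were otherwise the same strain and sex, with no transgene. Genes were selected on measured values: the symbol had to begin with Snord (box C/D snoRNA), Snora (box H/ACA snoRNA) or Scarna (scaRNA), and the estimated counts summed over the 8 libraries had to reach 80. This left 9 members of 150 genes with such a symbol, in a table of 54532 genes. They were 1 of 99 box C/D genes (*Snord17*), 4 of 42 box H/ACA genes (*Snora74a*, *Snora73a*, *Snora73b* and *Snora23*) and 4 of 9 Cajal genes (*Scarna10*, *Scarna13*, *Scarna2* and *Scarna6*). None of the 9 passed the test between SOR and homecage mice, and *Snord17* had the largest fitted difference in the main fit, though not with limma-voom, with RUVs factors or without SOR replicate 4.

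Box C/D and box H/ACA snoRNAs are guides that pair with a target RNA and bring it to a protein complex. The box C/D complex, built on fibrillarin (Fbl), Nop56, Nop58 and Snu13, methylates the ribose of the paired base. The box H/ACA complex, built on dyskerin (Dkc1), Nop10, Nhp2 and Gar1, turns uridine into pseudouridine. Most of these guides act on ribosomal RNA in the nucleolus, whereas scaRNAs sit in Cajal bodies and guide the same modifications on the RNAs of the spliceosome. Most mammalian guides are cut from introns of host genes.

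The sequences of members with a nucleolar or Cajal role are shown because the short boxes that name the classes can be read in them. They were read 5′ to 3′ on the RNA strand from GRCm38 with the GENCODE M21 gene models. *Snord17* is annotated at chr2:144265979-144266216 on the minus strand, inside intron 2 of *Snx5*. *Scarna6* lies at chr1:87784556-87784820 on the plus strand, in intron 13 of *Atg16l1*. *Scarna10* lies at chr6:125186359-125186683 on the minus strand, in intron 4 of *Ncapd2*, and only its first 40 and last 40 bases are shown. Capitals mark the C box core TGATGA and the D box CTGA.
Snord17: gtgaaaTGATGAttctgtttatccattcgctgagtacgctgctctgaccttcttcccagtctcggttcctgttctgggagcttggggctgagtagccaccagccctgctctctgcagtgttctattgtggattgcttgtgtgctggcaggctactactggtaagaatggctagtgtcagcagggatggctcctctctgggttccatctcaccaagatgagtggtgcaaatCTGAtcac
Scarna6: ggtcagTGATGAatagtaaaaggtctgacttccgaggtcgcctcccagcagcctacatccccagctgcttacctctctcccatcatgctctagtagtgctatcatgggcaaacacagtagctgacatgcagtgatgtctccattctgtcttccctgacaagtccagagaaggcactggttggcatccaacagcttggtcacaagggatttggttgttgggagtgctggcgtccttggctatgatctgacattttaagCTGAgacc
Scarna10, bases 1 to 40: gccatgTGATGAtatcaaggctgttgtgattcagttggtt
Scarna10, bases 286 to 325: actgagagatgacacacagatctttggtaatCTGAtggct
In each of these 3 RNAs TGATGA stood in the first 15 bases and CTGA in the last 15. The same pair of letters was found in 62.6% of the 99 box C/D genes, in 0 of the 42 box H/ACA genes and in 44.0% of all 150 genes. Only the RNA strand was searched. These matches describe the annotated sequence.

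*Scarna2*, at chr3:108554338-108554751 on the minus strand with no annotated gene over it, held the same letters farther in, at bases 346 to 351 and 411 to 414 of its 414 bases. Its last 80 bases are given for comparison.
Scarna2, bases 335 to 414: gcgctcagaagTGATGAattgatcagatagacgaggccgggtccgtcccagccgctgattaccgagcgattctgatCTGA
The first of these boxes lies outside the 15-base window, so *Scarna2* was not counted with the other 3.

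Box H/ACA RNAs typically end in the letters ACA followed by 3 bases, shown in capitals. Of the 4 box H/ACA members, 3 had this ending, and *Snora74a* did not have it in its annotated sequence, which is not shown. The scaRNA *Scarna13*, which also carries this ending, lies at chr12:105031075-105031349 on the minus strand, in intron 1 of the non-coding gene *Snhg10*. *Snora23* lies at chr7:110046364-110046547 on the plus strand, in intron 13 of *Ipo7*. *Snora73a* (chr4:132352775-132352979) and *Snora73b* (chr4:132352322-132352526), both on the minus strand, are copies of the RNA also called U17 or E1, which takes part in cleavage of the ribosomal RNA precursor. They lie in introns of *Rcc1* and *Snhg3*, and an annotated processed transcript of *Snhg3* has an exon over *Snora73a*. On the opposite strand, the non-coding gene *Gm17300* (10078 summed counts) has an exon over *Snora73a* and over *Snora73b*. In this pair, capitals also mark the bases that differ.
Scarna13: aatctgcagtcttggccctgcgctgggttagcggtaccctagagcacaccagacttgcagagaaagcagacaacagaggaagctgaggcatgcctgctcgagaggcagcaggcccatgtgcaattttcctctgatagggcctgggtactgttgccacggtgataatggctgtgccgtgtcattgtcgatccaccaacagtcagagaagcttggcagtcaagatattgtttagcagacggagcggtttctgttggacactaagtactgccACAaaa
Snora23: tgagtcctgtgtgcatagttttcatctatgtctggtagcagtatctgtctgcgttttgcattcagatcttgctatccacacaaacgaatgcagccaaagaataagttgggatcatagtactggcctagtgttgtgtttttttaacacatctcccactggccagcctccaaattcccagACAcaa
Snora73a: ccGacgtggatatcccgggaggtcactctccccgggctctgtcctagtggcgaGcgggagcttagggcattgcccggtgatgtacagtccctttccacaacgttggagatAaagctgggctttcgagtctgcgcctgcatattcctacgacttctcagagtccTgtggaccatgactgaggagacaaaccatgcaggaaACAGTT
Snora73b: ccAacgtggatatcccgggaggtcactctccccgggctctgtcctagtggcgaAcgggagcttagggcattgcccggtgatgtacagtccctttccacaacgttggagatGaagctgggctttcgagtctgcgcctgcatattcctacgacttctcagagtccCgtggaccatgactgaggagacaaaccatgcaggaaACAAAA
Counted from 1 at the 5′ end, with the *Snora73a* base first, the differences were G3A, G54A, A111G, T164C, G203A, T204A and T205A, which left 96.6% identity over 205 bases. The ACA ending was found in 83.3% of the 42 box H/ACA genes and in 24.7% of all 150.

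Annotated length divided the members from the other genes with such a symbol. All 9 genes of 180 nucleotides (nt) or more were members, with lengths from 184 to 414 nt, and the other 141 genes were 64 to 178 nt long. None of the 89 genes shorter than 100 nt had a count in any library. Counts above 0 were found in 19 of 45 genes from 100 nt to just under 140 nt and in 4 of 7 genes of 140 to 178 nt. A total of 118 of the 150 genes were at 0 in all 8 libraries, and a count of 0 allows up to 3 counts, which was 0.0368 to 0.0584 CPM (counts scaled to library size) across libraries. The members held 99.84% of the counts of the 150 genes. Because summed counts chose the members, these values are a description and not a test, and length and class cannot be told apart for box C/D genes, where the median was 84.0 nt. Guides this short are a large part of the class, so a count of 0 here does not show that they are absent from the tissue.

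**Figure D1:**
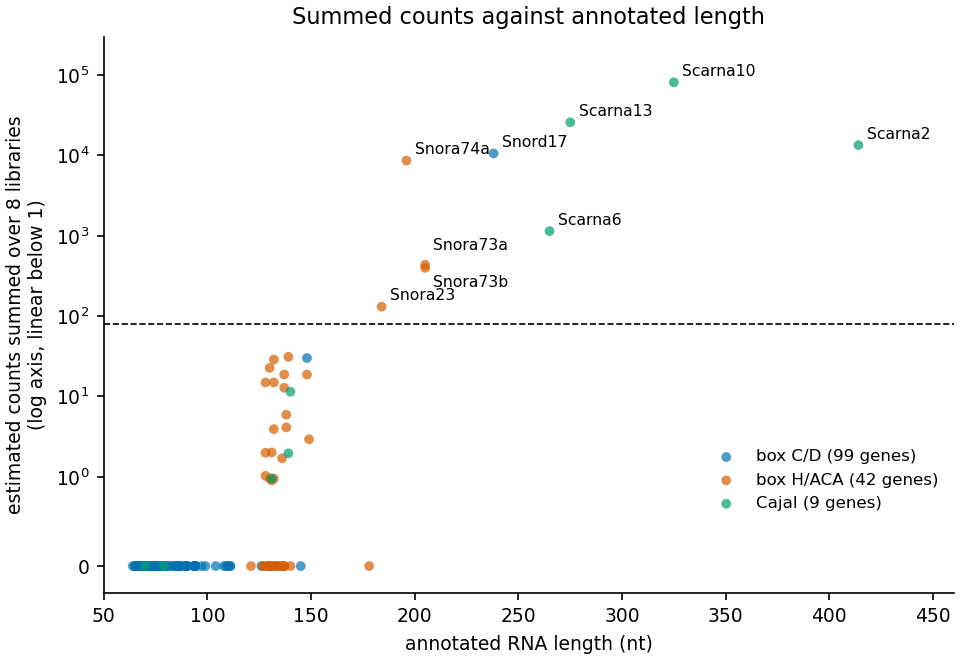
Summed estimated counts over the 8 libraries (y axis, logarithmic above 1 and linear below) against annotated length in nt (x axis) for 150 genes, coloured by class, with the threshold of 80 counts as a dashed line. The 9 named members, 184 to 414 nt long, lie above the line and every gene of 178 nt or less lies below it.

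The same split was looked for in genes the rule did not use. Of 1409 other genes of biotype snoRNA or scaRNA, 24 reached 80 summed counts, with a median length of 180.5 nt against 128 nt for the rest. Among those at least as long as the shortest member, 12 of 38 reached 80 counts, and among the shorter ones 12 of 1371 did. In a list of other short structural RNAs, 7 gene entries reached 80 counts, with lengths of 271 to 423 nt, and 10 did not, with lengths of 62 to 327 nt. These entries are not all separate RNAs. *Rmrp* has duplicate entries, and *Rn7s1* and *Rn7s2* had nearly equal values, at 66359 and 66357 CPM in homecage replicate 1. *Rn7sk*, a regulator of transcription elongation that is 331 nt long, had 14312 to 19985 CPM, whereas *Rny1* and *Rny3*, the Y RNAs of 112 and 102 nt, were at 0. Length therefore did not separate the 2 sets in this list. What sets detection apart was not tested.

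At the threshold, the members just inside were *Snora23* with 130.8 summed counts, *Snora73b* with 398.2 and *Snora73a* with 435.3. Just outside were *Snora43* with 31.1, *Snord15a* with 30.1 and *Snora41* with 28.8. No gene lay between 31.1 and 130.8, so membership did not turn on small changes of the threshold.

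Levels per length (CPM divided by annotated length) spanned a wide range. Dividing by length does not correct for how well short RNAs were recovered or for sequence shared with other genes. The order below therefore describes these libraries and may not be the order in the tissue. *Scarna10*, a scaRNA that combines C/D and H/ACA parts and guides modification of U5 RNA of the spliceosome, was highest in all 8 libraries, at 387 to 536 CPM per kilobase (kb). *Scarna13* followed in every library, at 161 to 199 CPM per kb. *Snord17* and *Snora74a*, also called U19, had overlapping ranges of 60.9 to 125 and 66.2 to 97.2 CPM per kb, and *Scarna2* overlapped *Snora74a* at 53.4 to 74.7 CPM per kb. These 3 therefore had no firm order. *Scarna6* was below all of them, at 6.32 to 10.5 CPM per kb, and above *Snora73a*, *Snora73b* and *Snora23* in every library. *Snora73a* and *Snora73b* overlapped at 1.60 to 5.27 and 0 to 5.77 CPM per kb, and *Snora23* was lowest on average at 1.36 CPM per kb. Mean levels of *Scarna10* were 357-fold those of *Snora23*. The Cajal class took 85.8 to 87.8% of the members' CPM in homecage and 82.5 to 85.7% in SOR libraries, ranges that did not overlap but lay close together, and *Snord17* took 5.57 to 7.62% and 7.32 to 11.8%. These shares sum to a whole, so a higher share of one class lowers the others, and they were not tested. All 9 members together made up 0.0247 to 0.0316% of all counts.

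The libraries held 51406011 to 81525977 estimated counts. Apart from *Snora23*, the members varied between replicates by more than counting error, with a chi-square per degree of freedom from 3.75 in *Scarna6* to 111 in *Scarna10*. *Snora23*, the member with the fewest counts, was at 1.83, a spread that counting error alone can give. This chi-square measure rises with the counts, so it does not rank the members by variability. The highest CPM was 1.39 times the lowest in *Scarna10* and 1.65 times in *Scarna6*. No pair of libraries was identical in these genes. Markers of the choroid plexus, a tissue beside the hippocampus, ranged in summed level from 24.6 to 1094 CPM in homecage and from 40.6 to 4001 CPM in SOR libraries, with all 6 markers detected. The 8 markers of dorsal hippocampal neurons had summed levels of 1624 to 1953 CPM in homecage and 1764 to 2037 CPM in SOR libraries. The 6 mature oligodendrocyte markers all had log2 fold changes below 0 (median -0.20), and 3 had an unadjusted p under 0.05 in the edgeR fit. Their summed levels overlapped, at 5021 to 5480 CPM in homecage and 4109 to 5381 CPM in SOR libraries. Of 4 microglial markers 2, and of 3 endothelial markers 1, were lower at that level, and 0 of the 4 astrocyte and 0 of the 4 thalamic markers were. Over all genes tested, 10.1% were at that level in either direction, and 12368 of 22018 had a log2 fold change below 0. No marker of any list passed at an adjusted p under 0.05 in the main fit. The paper reports the oligodendrocyte marker *Opalin* as lower after training in bulk RNA-seq, from a fit with RUVs factors. Here its log2 fold change was -0.50 (edgeR adjusted p = 0.164), with all SOR values below all homecage values. In whole tissue, fewer cells of a type and less RNA per cell cannot be told apart. The part of these markers in the members' values was not tested.

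Each member was tested by the quasi-likelihood F test of edgeR across the 22018 genes that passed a filter on low counts, and all 9 members were among them. Calls required an adjusted p below 0.05 together with a fold change of more than 1.4. By this rule 0 of 9 members were called, against 38 of all genes tested, or 0.173%, of which 33 were higher and 5 lower in SOR mice. With 3 RUVs factors, the kind of correction named in the study's methods, and edgeR's likelihood ratio test, 105 were higher and 98 lower. The likelihood ratio test without RUVs factors gave 69 higher and 36 lower. At an unadjusted p under 0.05, *Snord17* was the single member, or 1 of 9, against 10.1% of all genes. The SOR values of 0 of 9 members lay beyond all homecage values, against 6.94% of all genes. Box H/ACA members had a median log2 fold change of 0.08 (3 higher, 1 lower) and Cajal members of -0.05 (2 lower, *Scarna2* at 0.02 and *Scarna6* at 2.6e-05), beside -0.02 over all genes. The direction of the box H/ACA class depended on the measure: its summed CPM, most of it *Snora74a*, had a log2 ratio of -0.09, and its median was -0.02, -0.06 and -0.03 with 1, 2 and 3 RUVs factors.

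**Figure D2:**
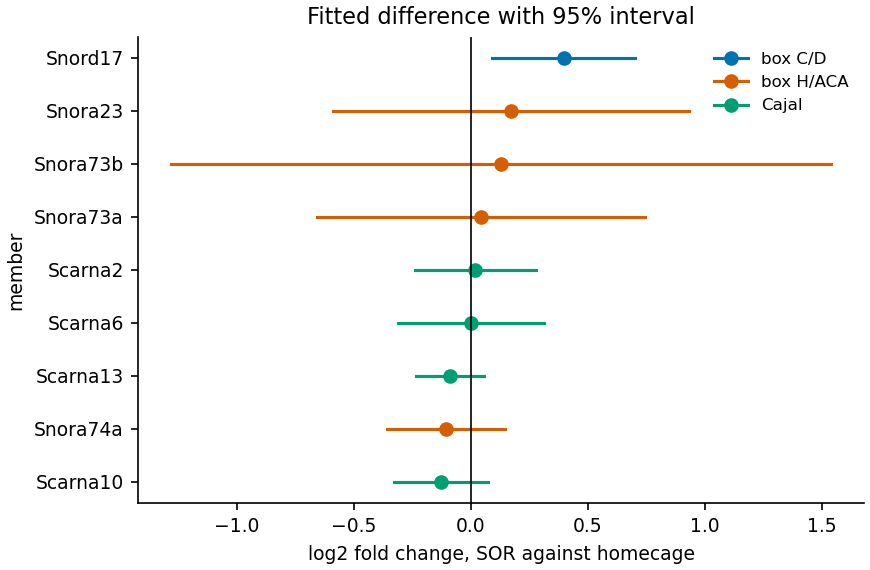
Fitted log2 fold change of SOR against homecage mice (x axis) for the 9 members (y axis), with dots for estimates and lines for 95% intervals, coloured by class. The interval of *Snord17*, 0.09 to 0.70, lies above 0, and the other 8 intervals include 0.

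*Snord17*, the sole box C/D member, was at 14.5, 16.6, 19.8 and 21.5 CPM in the homecage mice and at 22.4, 22.2, 21.1 and 29.8 CPM in the SOR mice. Only the homecage value of 21.5 reached into the SOR range, above 1 SOR mouse. The means were 18.1 ± 3.12 and 23.9 ± 3.98 CPM (SD, n = 4 per group), and the log2 fold change was 0.40 with a standard error of 0.14 (95% interval 0.09 to 0.70). Its adjusted p was 0.364 from edgeR's quasi-likelihood test, and the unadjusted p of the same edgeR fit was 0.0157. An exact two-sided permutation test gave p = 0.0571, and the smallest p that 4 against 4 mice allow is 0.0286. Scaled by library size alone, the groups did not overlap (exact permutation p = 0.0286). The highest homecage value was then 20.986 CPM and the lowest SOR value 20.999 CPM. With TMM and RLE factors the groups overlapped (exact permutation p = 0.0571 with each), so the outcome of this test depended on the scaling. Without SOR replicate 4, the log2 fold change was 0.27 (edgeR adjusted p = 0.480).

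*Snx5*, the host gene of *Snord17*, encodes a sorting nexin that acts in endosomal transport. It averaged 59.8 ± 2.37 CPM in homecage mice and 59.4 ± 2.48 CPM in trained mice (SD, n = 4), with a log2 fold change of -0.01 (edgeR adjusted p = 0.966). Per length, *Snord17* stood at 4.48 to 6.38 times its host in homecage mice and 6.26 to 8.82 times in SOR mice, and the ranges overlapped. A difference between the changes of *Snord17* and *Snx5* was not tested.

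**Figure D3:**
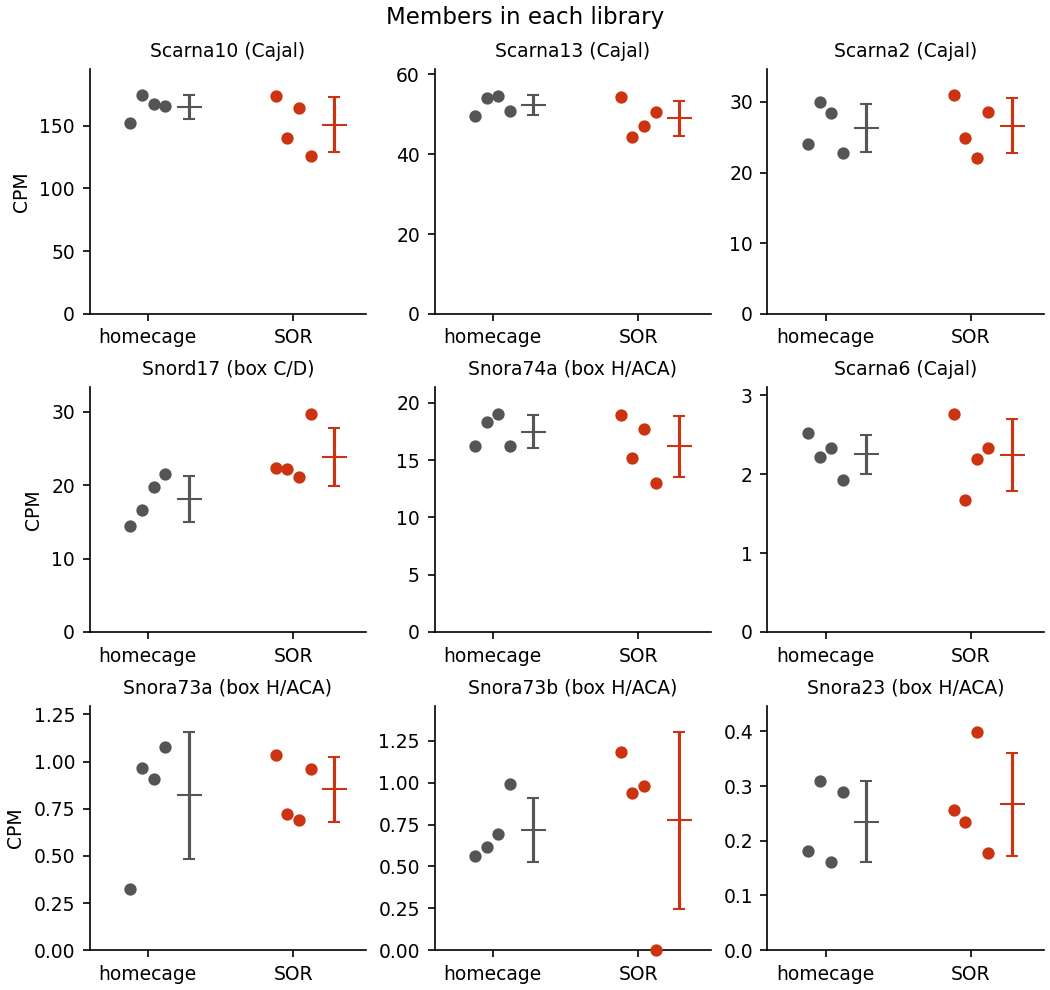
CPM of each of the 9 members (y axis, each panel with its own scale from 0) in the 4 homecage and 4 SOR mice (dots), with the mean and SD beside them. The groups overlap in every panel, and in *Snord17* 1 homecage value, 21.5 CPM, lies above the lowest SOR value of 21.1 CPM.

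Among box H/ACA members, *Snora74a* was best measured. Its homecage values were 16.3, 18.3, 19.1 and 16.3 CPM and its SOR values 19.0, 15.2, 17.7 and 12.98 CPM. The log2 fold change was -0.11 (95% interval -0.36 to 0.15, edgeR adjusted p = 0.818). The pair of genes annotated as spanning *Snora74a* had no row in the table, so no host value is given. All of its 31-base words also occur in one of those genes, and 39.8% occur in *Gm49347*, an annotated miRNA that partly overlaps it and was at 0 in all libraries.

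*Snora73a* and *Snora73b* share 43.4% of their 31-base words. With *Snhg3*, *Snora73a* shares 73.7% of its words and *Snora73b* 32.0%. Reads could be split among these genes, so values for either member, and for their sum, are uncertain. *Snora73a* had 0.327, 0.969, 0.910 and 1.08 CPM in the homecage mice and 1.04, 0.721, 0.691 and 0.962 CPM in SOR mice. *Snora73b* had 0.563, 0.618, 0.696 and 0.992 CPM in the homecage mice and 1.18, 0.937, 0.983 and 0 CPM in SOR mice. The single 0 of *Snora73b* fell in SOR replicate 4, where *Snora73a* had 49.3 counts. Summed, the pair averaged 1.54 ± 0.487 CPM in homecage mice and 1.63 ± 0.515 CPM in trained mice (SD, n = 4), and the groups overlapped. The 95% interval of the log2 fold change ran from -1.28 to 1.54 for *Snora73b* and from -0.66 to 0.74 for *Snora73a*, so changes of more than 1.4-fold in either direction remained possible. *Snora23* had 8.53 to 26.5 counts per library and a log2 fold change of 0.17 (edgeR adjusted p = 0.912, 95% interval -0.59 to 0.93).

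*Scarna10* had homecage values of 152, 174, 168 and 166 CPM and SOR values of 174, 140, 164 and 126 CPM. Its log2 fold change was -0.13 (95% interval -0.33 to 0.07, edgeR adjusted p = 0.693). *Scarna10* shares 85.8% of its 31-base words with other annotated transcripts, 70.2% with a retained-intron transcript of *Ncapd2*, so its reads may not all come from the RNA itself. *Ncapd2*, a condensin subunit, averaged 14.03 ± 2.77 CPM without and 14.7 ± 3.30 CPM with training (SD, n = 4), and per length *Scarna10* was 152 to 343 times its host.

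*Scarna13*, also called U93, had 49.6, 54.1, 54.6 and 50.7 CPM in the homecage mice and 54.4, 44.2, 47.1 and 50.6 CPM in SOR mice. Its log2 fold change was -0.09 (95% interval -0.23 to 0.05, edgeR adjusted p = 0.694), so a change beyond 1.4-fold lay outside the interval. Its host *Snhg10* had 1.18, 1.04, 1.09 and 1.19 CPM in the homecage mice and 1.65, 1.26, 1.397 and 1.20 CPM in SOR mice. All SOR values of *Snhg10* exceeded all homecage values, yet its log2 fold change of 0.30 did not pass the test (edgeR adjusted p = 0.551).

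*Scarna2*, a C/D scaRNA of the spliceosome, had 23.997, 30.03, 28.4 and 22.8 CPM in the homecage mice and 30.9, 24.9, 22.1 and 28.6 CPM in SOR mice, and its log2 fold change was 0.02 (95% interval -0.24 to 0.28). *Scarna6*, also called U88, had 2.53, 2.22, 2.34 and 1.93 CPM in the homecage mice and 2.77, 1.68, 2.20 and 2.34 CPM in SOR mice. The means of *Scarna6* were 2.25 ± 0.248 and 2.24 ± 0.451 CPM (SD, n = 4), and its log2 fold change was 2.6e-05 (95% interval -0.31 to 0.31), which has no direction. *Atg16l1*, its host and a component of the autophagy machinery, averaged 56.4 ± 1.99 CPM in homecage mice and 61.4 ± 1.34 CPM in trained mice (SD, n = 4). Each SOR value of *Atg16l1* was above each homecage value, but the log2 fold change of 0.12 did not pass (edgeR adjusted p = 0.327).

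**Figure D4:**
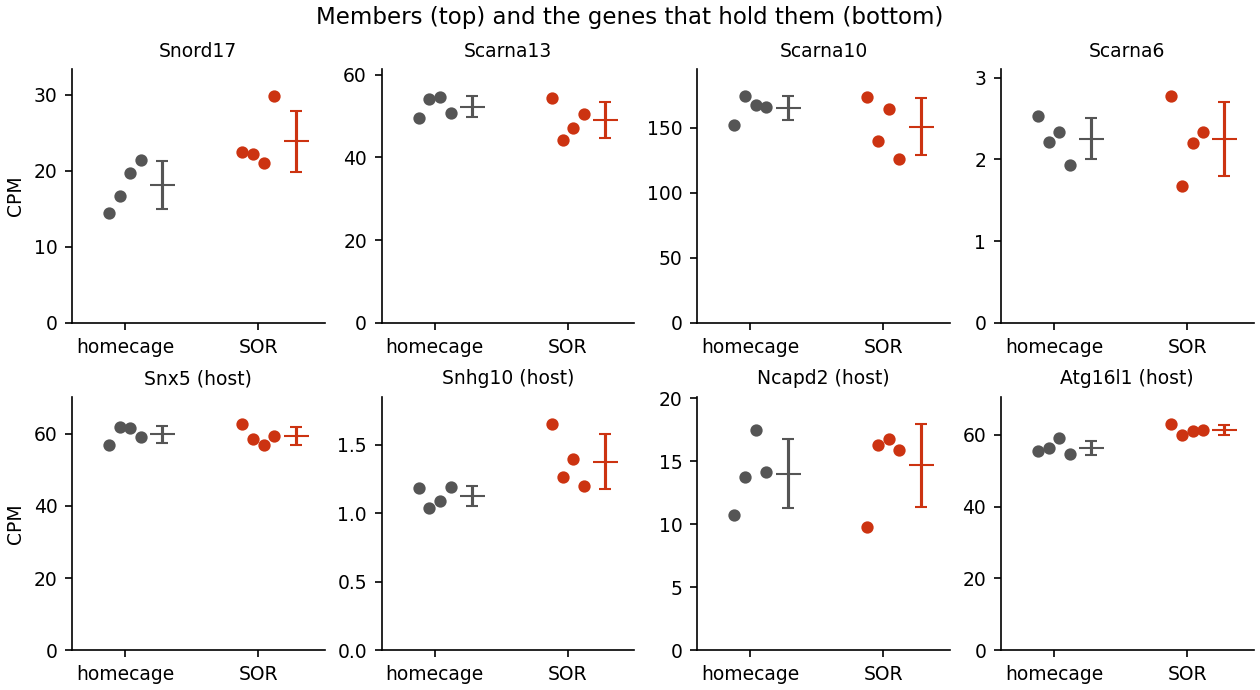
CPM of 4 members (top row) and of the genes whose introns hold them (bottom row) in the 4 homecage and 4 SOR mice (dots, with mean and SD, y axis from 0). *Snord17* differs most between the groups, with means of 18.1 and 23.9 CPM, while its host *Snx5* has means of 59.8 and 59.4 CPM.

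Genes of the guide RNA complexes and of snoRNA and other RNA processing were measured beside the members. Of 40 listed symbols, 39 matched a gene measured here, and all 39 were tested. In the edgeR fit, 0 passed at an adjusted p under 0.05 in either direction. At an unadjusted p under 0.05 were 6 of 39 (3 higher, 3 lower), where 10.1% of all genes were. Their median log2 fold change was -0.03, against -0.02 over all genes. *Nhp2*, a core protein of the H/ACA complex, averaged 22.4 ± 0.857 CPM in homecage mice and 19.8 ± 0.756 CPM in trained mice (SD, n = 4), a log2 fold change of -0.18 (edgeR adjusted p = 0.308). *Nop58*, a core protein of the C/D complex, had a log2 fold change of 0.14 (edgeR adjusted p = 0.411), and *Fbl*, the methyltransferase, of -0.11 (edgeR adjusted p = 0.640). *Dkc1*, the pseudouridine synthase, stood at 0.00 (edgeR adjusted p = 0.995). Among non-coding snoRNA host genes, 0 of 17 tested passed (2 at an unadjusted p under 0.05, against the same 10.1%), with a median log2 fold change of -0.10. *Gas5*, which holds many box C/D snoRNAs, had a log2 fold change of -0.10 (edgeR adjusted p = 0.436). Of the other short structural RNAs, 0 of 7 tested entries passed. An unadjusted p under 0.05 in the edgeR fit was found in 0 of 7, again beside 10.1% of all genes. The 7 entries include the duplicates of *Rmrp* and the nearly equal *Rn7s1* and *Rn7s2*.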

How the data were processed

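RNA was taken from dorsal hippocampus, and libraries were made with a total RNA kit with ribosomal RNA depletion according to the study's methods, whereas the labels name polyA RNA as the molecule. The methods name bcbio-nextgen, STAR and featureCounts, upper-quartile scaling and RUVs factors (number not given) with edgeR. The authors deposited estimated counts (a tximport summary), and the quantifier behind it is not given in the sources used here. The genome was mm10 per the labels, and gene models were matched to GENCODE M21 (54495 of 54532 genes). Of the values, 52.6% were not whole numbers, so estimated counts were rounded. No columns other than the 8 libraries were in the table.

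Counts were scaled with upper-quartile factors and tested with edgeR 4.0.16 in R 4.3.3 (glmQLFit, glmQLFTest, filterByExpr), with group as the only term. P-values were adjusted by Benjamini-Hochberg over 22018 genes. Single values were tested with an exact two-sided permutation test over 70 assignments on log2(CPM + 0.5). DESeq2 1.42.0, limma 3.58.1 and other scalings, filters and left-out samples were alternatives. Fits with RUVs factors used edgeR's likelihood ratio test in place of the quasi-likelihood test. The fit was tested on simulated data. Libraries held 51406011 to 81525977 counts, and intervals for counts of 0 cover counting error only. No pairing of samples by replicate number was seen: correlations of deviations between same-numbered samples were -0.13 to 0.21, and those between others -0.38 to 0.29. With 4 mice per group, this check cannot exclude pairing. Named members were all 9, plus their hosts, the genes just outside the threshold and fixed role genes. Members and lists were chosen with earlier results of these data known. Genes of the complexes named individually, *Rn7sk*, the Y RNAs and *Gas5* were chosen after their values were seen.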

Additional observations from a re-analysis of the deposited data

Results flagged for a closer look

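Of 24 groups of 4 values checked (the 9 members, the box H/ACA sum, the Cajal sum and the sum of all members in each group), 1 had a sample far from the other 3, as chance gives in about 1 of 20 groups. It was *Snord17* in SOR replicate 4, at 29.8 CPM, where the other SOR mice had 21.1 to 22.4 CPM. In the same library *Snora73b* was at 0, and *Scarna10* and *Snora74a* had their lowest values of the 8 libraries, at 126 and 12.98 CPM. The ratio of *Snord17* to *Scarna10* counts was 0.237 there and 0.0952 to 0.159 in the other libraries. SOR replicate 4 had the lowest total, 51406011 counts. The part of depth in these values was not tested.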

How the results depend on the processing

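With each of 13 alternative fits, with each of the 8 samples left out and without a fold-change threshold, 0 members were called, and the number of members in each class was the same at thresholds of 40 and 160 counts except that box H/ACA fell to 3 at 160. The lowest adjusted p of *Snord17* was 0.0632, from the likelihood ratio test with 2 RUVs factors, against 0.265 from that test without them. The log2 fold change of *Snord17* was 0.38 to 0.42 over the alternatives and 0.27 to 0.49 with 1 sample left out. The number of all genes called was 105 with the likelihood ratio test and 112 with DESeq2. It was 134, 191 and 203 with 1, 2 and 3 RUVs factors added to the likelihood ratio test. Without a fold-change threshold it was 68, and with 1 sample left out it was 22 to 38. With the replicate number as a block, 30 genes and 0 members were called, and *Snora73b* (-0.0885) changed direction. *Scarna6*, at 2.6e-05 in the reported fit, had no direction to lose and was at -0.0188 with the block, -0.0020 without a filter and -0.0024, -0.0493 and -0.0555 with 1, 2 and 3 RUVs factors. *Snora73b* was also reversed with limma-voom (-0.95) and with 1, 2 and 3 RUVs factors (-0.73, -0.85 and -0.78). *Scarna2* was reversed with 2 and 3 RUVs factors (-0.0112 and -0.0094). With 1 sample left out, log2 fold changes were -0.0641 to 0.10 for *Scarna2*, -0.12 to 0.12 for *Scarna6*, -0.21 to 0.20 for *Snora73a*, -0.15 to 0.52 for *Snora73b* and -0.0894 to 0.33 for *Snora23*. The cause was not tested. DESeq2 gave no adjusted p for *Snora73a*, *Snora73b* and *Snora23*. The medians and summed levels of each class moved by less than the spread between replicates, but some changed sign. The box H/ACA median was -0.11 to 0.24 with 1 sample left out. The log2 ratio of the box H/ACA summed CPM was 0.0138 without SOR replicate 4. The Cajal median was 0.0026 without SOR replicate 2. *Snora73a*, *Snora73b* and *Snora23* had under 100 counts in every library, and the parts of depth and replicate spread in their wide intervals were not separated.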
